A study of Rattus norvegicus with 22 samples.

Results

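Biglycan (BGN), decorin (DCN) and fibromodulin (FMOD) are the 3 small leucine rich proteoglycans (SLRP) among the 22 target genes analysed here by qRT-PCR in the calcaneal tendon (CT) of rats, and they were taken by name. The tendons came from adult male Wistar rats whose gastrocnemius muscle (GA), the muscle that pulls on this tendon, was injured by contact with a metal bar cooled in liquid nitrogen. The tendon itself was not lesioned. The 22 animals comprised 5 controls without muscle injury (C), 5 rats taken 3 days after the injury (3D), 6 taken after 14 days (14D) and 6 taken after 28 days (28D). Each rat was a separate animal and the unit of replication, and whole tendon RNA was used, so that fewer cells of a type and less RNA per cell cannot be told apart.

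SLRP are secreted proteins with a short core of leucine rich repeats that carry glycosaminoglycan chains, such as keratan sulfate, and bind to collagen fibrils. Decorin is the most abundant proteoglycan of adult tendon, limits the lateral growth of fibrils and binds TGF-β, while biglycan, its closest relative, takes part in fibril assembly, in the niche of tendon stem cells and in inflammatory signaling. Fibromodulin belongs to another class of the family, binds a different site on type I collagen and guides the maturation of thin fibrils into thick ones.

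Each value was a cycle threshold (Ct), the number of PCR cycles needed before a product is seen, so that 1 cycle earlier stands for a doubling of the template. The Ct of the 3 genes ran from 20.8 to 31.02 for FMOD, from 24.3 to 34.1 for DCN and from 27.8 to 35.6 for BGN. These ranges do not rank the genes by abundance, since each assay had its own primers and amount of cDNA. All 22 FMOD values, 21 of 22 for BGN and 20 of 22 for DCN were used. The values left out equalled their group's mean without that animal, within 1e-06 cycles, namely BGN and DCN of replicate 3 of 3D and DCN of replicate 4 of C. The tenocyte genes SCX, MKX and TNMD amplified in all 22 animals, at a Ct of 27.2 to 33.7, 26.5 to 36.6 and 21.8 to 30.8. COL1A1, a type I collagen gene also counted as a tenocyte marker here, had a usable Ct in 20 of 22 animals, from 24.4 to 35.04.

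Some animals stood apart in the reference gene RPLP0, a ribosomal protein used to correct for the amount of cDNA. Its Ct was 32.3 in replicate 2 of 3D and 30.6 in replicate 4 of C, against 26.1 to 30.02 in the other 20 animals. In replicate 2 of 3D all 3 proteoglycans also had their latest Ct of the series, at 35.6 for BGN, 34.1 for DCN and 31.02 for FMOD. The mean RPLP0 Ct ± SD was 27.3 ± 1.91 for the 5 controls, 28.2 ± 2.37 for the 5 rats of 3D, 27.1 ± 1.15 for the 6 of 14D and 28.8 ± 1.28 for the 6 of 28D. The 28D mean came 1.72 cycles after that of 14D, by exact permutation at p = 0.0303, so that values relative to RPLP0 and values free of it are both given.

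DCN mRNA relative to RPLP0 was lowest in 3D and highest in 28D. With the mean of C set to 0 on the log2 scale, the DCN values of C were -0.62, -0.12, 0.31 and 0.43 in replicates 1, 2, 3 and 5. Those of 3D were -1.71, -2.44, -0.04 and -1.69 in replicates 1, 2, 4 and 5. Thus 3 of 4 tendons of 3D lay below all of C, while replicate 4 of 3D stood among the controls. In 14D, the DCN values were -0.67, 1.9999, 1.42, -0.01, 0.19 and -0.30 in replicates 1 to 6. In 28D they were 0.68, -0.03, -0.64, 1.83, 1.65 and 1.61. Both late groups were therefore split, with replicates 2 and 3 of 14D and replicates 1, 4, 5 and 6 of 28D above every control and the rest inside the range of C or just below it.

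Between groups, DCN was higher in 28D than in 3D by 2.32 on the log2 scale, a 5.00-fold difference (SE 0.60, limma adjusted p = 0.0177), and 5 of 6 animals of 28D exceeded all 4 of 3D (exact p by permutation 0.0143). It was also higher in 14D than in 3D, by 1.91 or 3.75-fold (SE 0.60, limma adjusted p = 0.0403), and 4 of 6 animals exceeded all of 3D (exact p by permutation 0.0333). The 2 differences share the 3D animals and are not independent of each other. Of the 22 genes of the panel, 31.8% passed upward in 28D against 3D and 27.3% in 14D against 3D, so that a rise from 3D was not peculiar to DCN. Against C, the log2 difference of DCN was -1.47 in 3D (95% interval -2.83 to -0.12, adjusted p = 0.199), 0.44 in 14D (-0.80 to 1.67) and 0.85 in 28D (-0.39 to 2.09, adjusted p = 0.426). In the order 28D, 14D, C and 3D, no 2 neighbouring groups differed past the threshold, since 28D against 14D gave 0.41 (SE 0.53, exact p 0.481 by permutation, limma adjusted p = 0.7003).

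Both calls depended on the reference. With the mean Ct of the 7 other target genes measured in every animal in place of RPLP0, DCN differed by 0.73 in 28D against 3D (adjusted p = 0.606) and by 0.95 in 14D against 3D, and neither passed. These genes were SCX, MKX, TNMD, ERG1, SMAD-2, SMAD-3 and TNC. Relative to RPLP0, all were higher in 28D than in 3D, from 0.607 for SMAD-2 to 1.986 for MKX. MKX and TNMD passed there, and MKX also in 14D against 3D. Their mean takes out any rise that DCN shared with them, so the smaller differences cannot decide whether DCN rose. Relative to RPLP0 but without replicate 2 of 3D, the animal with the late RPLP0, the DCN differences were 1.998 and 1.584. Neither passed.

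BGN mRNA moved less from group to group. Relative to RPLP0 and the mean of C, the BGN values of C were -0.99, -0.19, -0.14, 0.69 and 0.63 in replicates 1 to 5. In 3D they were -0.94, -1.21, -0.38 and -1.27 in replicates 1, 2, 4 and 5, which left 2 of the 4 below all controls. The BGN values of 14D were -1.08, 1.48, 0.09, -0.43, -0.06 and -0.27, with replicate 2 far above the rest. In 28D they were -1.02, -1.20, -2.29, 0.70, 0.19 and -0.14. The spread in 28D, an SD of 1.09, covered the whole range of C and more, and 3 of 6 animals lay below every control while 1 lay above.

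No pair of groups passed for BGN. The difference of 3D from C was -0.95 on the log2 scale (SE 0.56, exact p 0.0476 by permutation, limma adjusted p = 0.333), a level 0.518 times that of C. Against 14D, BGN in 28D differed by -0.58 (95% interval -1.58 to 0.42, adjusted p = 0.506). The order from high to low was C, 14D, 28D and 3D, and the means of C and 14D were 0.05 apart. The 95% interval of 3D against C, from -2.11 to 0.21, included 0.

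FMOD mRNA was the most variable of the 3 genes. The SD within groups, pooled over the 4 groups, was 1.32 on the log2 scale for FMOD, 0.95 for DCN and 0.84 for BGN, against a median of 0.85 over the 22 genes, and 18 genes varied less than FMOD. In C its values were -2.12, 0.31, -0.42, 1.59 and 0.63 in replicates 1 to 5, the widest spread of the 3 genes among controls. In 3D they were -1.43, -2.27, 1.83, -0.88 and 0.03. Replicate 3 of 3D, at 1.83, had the earliest FMOD Ct of all animals, 20.8, and is the animal whose BGN and DCN were left out. For the 0.03 of replicate 5 of 3D the deposited table used an RPLP0 Ct of 28.5, where BGN and DCN of the same animal were normalized with 27.1. That 28.5 equals the mean RPLP0 Ct of the group's other animals, while 27.1 was the animal's own, and the 0.03 was kept. The FMOD values of 14D were -1.02, 1.26, -0.23, -1.20, -0.51 and -0.63, and those of 28D were -0.75, -0.74, -2.71, 1.36, 0.66 and 0.05.

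The 4 groups of FMOD overlapped in every pair. Its means were 0.54 below C in 3D (log2 difference -0.54, SE 0.78, adjusted p = 0.727), and -0.39 in 14D and -0.36 in 28D, and the smallest exact permutation p of the 6 pairs was 0.563. Taking 27.1 as the RPLP0 Ct of replicate 5 changed the FMOD difference of 3D from C to -0.81 (adjusted p = 0.532). The 95% interval of 28D against C ran from -1.89 to 1.18, so that these data set only wide bounds on FMOD.

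**Figure D1:**
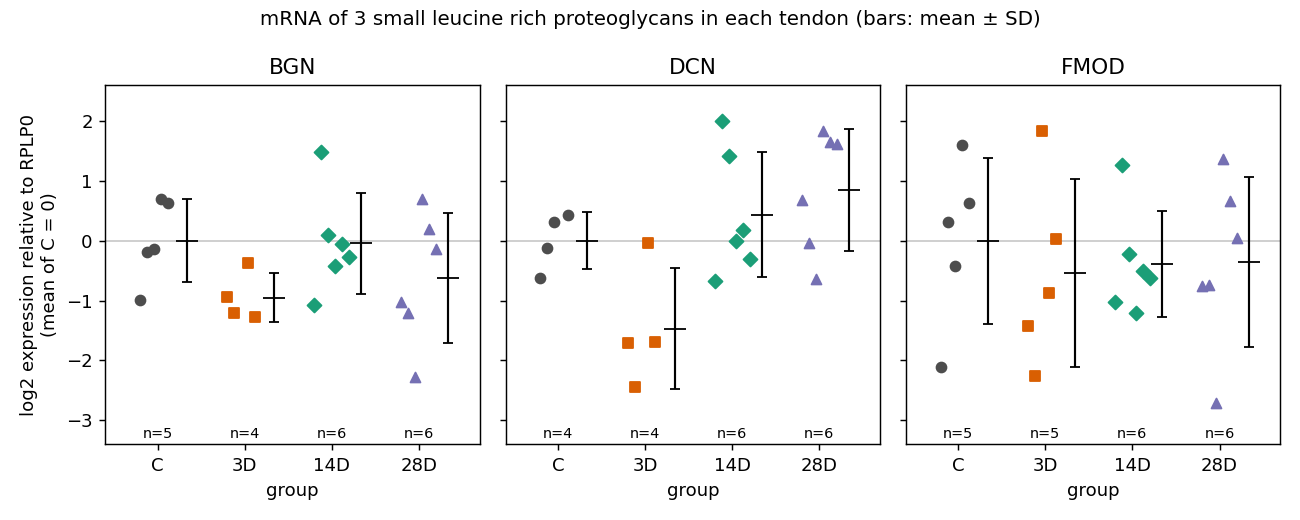
Log2 expression of BGN, DCN and FMOD relative to RPLP0, with the mean of C at 0, in each tendon of C, 3D, 14D and 28D; points are animals and bars show the mean ± SD. DCN sits lowest in 3D, at a mean of -1.47, and highest in 28D, at 0.85, while the groups of FMOD overlap in every pair.

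In all, 2 of the 18 tests of a proteoglycan between 2 groups passed (11.1%), both for DCN and both upward, beside 10.6% of all tests of the panel. The median log2 difference of the 3 genes was -0.95 in 3D against C, where that of the 22 genes was -0.77, and 0.32 in 28D against 3D, where that of the 22 genes was 1.07.

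The 3 genes were next compared with each other in the same cDNA. The Ct of one gene minus that of another in 1 animal needs no reference gene, since a larger or smaller amount of cDNA shifts both. Its level depends on the 2 assays and carries no meaning of its own, and its change between groups is a change in the ratio of the 2 mRNAs, provided both assays amplify with a like efficiency. Every pair of the 22 target genes was tested between groups in the same way, 1386 tests in all, of which 1.8% passed.

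Against BGN, DCN was lowest in 3D and highest in 28D. DCN reached threshold before BGN by 2.90, 3.27 and 2.63 cycles in replicates 2, 3 and 5 of C. In 3D the lead of DCN was 2.05, 1.59, 3.16 and 2.41 cycles in replicates 1, 2, 4 and 5, and 3 of these 4 lay below all controls. In 14D it was 3.23, 3.35, 4.16, 3.24, 3.07 and 2.80 cycles in replicates 1 to 6, mostly within or just above the range of C. In 28D it was 4.53, 3.99, 4.47, 3.96, 4.28 and 4.58 cycles. Every tendon of 28D thus lay above every tendon of C and of 3D, and only replicate 3 of 14D reached into the range of 28D.

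The mean lead of DCN over BGN, with its SD, was 2.93 ± 0.32 cycles for 3 controls, 2.30 ± 0.66 for 4 rats of 3D, 3.31 ± 0.46 for 6 of 14D and 4.30 ± 0.27 for 6 of 28D. From 3D to 28D the DCN to BGN ratio rose by 1.999 on the log2 scale (SE 0.38, 95% interval 1.21 to 2.79, adjusted p = 0.0113 over the 1386 tests), with an exact permutation p of 0.00476, the smallest that 6 animals against 4 allow. In 28D against 3D, 1.3% of gene pairs passed and 7.79% had groups that did not overlap. Over the 3 controls, the 6 animals of 28D had a 2.58-fold ratio (1.37 on the log2 scale, SE 0.41), which did not pass (adjusted p = 0.0867), although the exact permutation p of 0.0119 was the smallest possible; 5.19% of gene pairs did not overlap in this comparison, and no gene pair passed (0%).

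Between 28D and 14D the DCN to BGN ratio differed by 1.00 (SE 0.34, exact p 0.00649 by permutation, limma adjusted p = 0.139), and 4 of 6 animals of 28D exceeded all 6 of 14D. Between 14D and 3D it differed by 1.00 (SE 0.38, exact p 0.0143 by permutation, limma adjusted p = 0.172), and neither passed. In the order 28D, 14D, C and 3D the neighbours C and 14D differed by 0.37 (95% interval -0.49 to 1.24) and 3D and C by -0.63 (-1.56 to 0.31).

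The lead of DCN over BGN moved with the RPLP0 Ct in the late groups. In 28D, replicates 4, 2, 5, 3, 6 and 1, in the order of their RPLP0 Ct from 26.8 to 30.02, had leads of 3.96, 3.99, 4.28, 4.47, 4.58 and 4.53 cycles, so that the animals with a later RPLP0 Ct had the larger leads, apart from the last. In 14D the lead of 4.16 cycles belonged to replicate 3, which had the latest RPLP0 Ct of its group, at 29.3. In 3D the order was the other way at its end, since replicate 2, with an RPLP0 Ct of 32.3, had the smallest lead, 1.59 cycles, and its BGN Ct of 35.6 is the only proteoglycan value past a Ct of 35, where a Ct is less precise. At a like RPLP0 Ct, replicates 4 and 2 of 28D, at 26.8 and 27.8, had leads of 3.96 and 3.99 cycles. These lay above the 3.23 and 3.35 cycles of replicates 1 and 2 of 14D, at 26.7 and 27.6. At a later RPLP0 Ct the leads were close, at 4.28 cycles in replicate 5 of 28D (29.2) and 4.16 in replicate 3 of 14D (29.3). The 3 controls with a value had an RPLP0 Ct of 26.1 to 26.4, which no animal of 28D had.

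The RPLP0 Ct of each animal was then used as a covariate, with a single slope shared by all groups. The difference of 28D from 3D was 1.99 and passed (limma adjusted p = 0.0156), and that of 28D from C was 1.27 (limma adjusted p = 0.207). A shared slope cannot follow leads that went up with the RPLP0 Ct in the late groups and down at the end of 3D. With replicate 2 of 3D left out as well, the difference of 28D from 3D was 1.37 and no longer passed (adjusted p = 0.0510), that from 14D was 0.48 (adjusted p = 0.429) and that from C was 0.60 (95% interval -0.26 to 1.45, adjusted p = 0.461). With the covariate and all animals, 28D differed from 14D by 0.93. Without the covariate, 28D differed from 14D by 0.995 and from C by 1.37. These differences do not involve 3D, so leaving out replicate 2 of 3D alone cannot change them. Without the covariate, the call of 28D against 3D was lost without replicate 1 of 3D (adjusted p = 0.0586), and the size stayed between 1.761 and 2.285 whichever animal was left out. The difference of 28D from 14D passed only without replicate 3 of 14D (1.165, adjusted p = 0.0497).

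**Figure D2:**
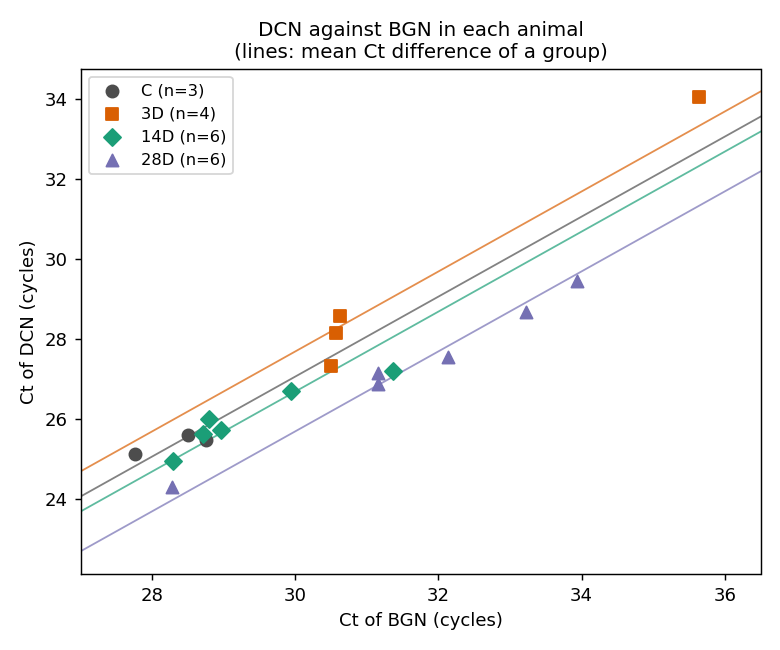
Ct of DCN (y axis, cycles) against Ct of BGN (x axis, cycles) in each animal, with lines at the mean Ct difference of each group; a point lower down has more DCN for its BGN. The line of 28D lies 4.30 cycles below equality, and its animals lie 3.96 to 4.58 cycles below it over BGN Ct values of 28.3 to 33.9. The line of 3D is nearest to equality, at a mean of 2.30 cycles, with animals from 1.59 to 3.16.

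One value bears on the controls of these ratios. For replicate 1 of C the deposited table gives a DCN Ct of 30.1, identical to the Ct of BGN in that animal, and it was left out above. The deposited ΔCt of DCN in the same animal, -0.02, added to the RPLP0 Ct used for its 21 other genes gives a DCN Ct of 26.9. DCN of replicate 4 of C was one of the values equal to a mean of other animals, in ΔCt, and its Ct of 25.8 is the mean of the 4 other controls only if that of replicate 1 was 26.9. The difference between both routes was -9.16e-06 cycles. With this Ct in place the lead of DCN over BGN in replicate 1 of C is 3.19 cycles, inside the range of the 3 other controls, and the difference of 28D from C is 1.31 (SE 0.37, limma adjusted p = 0.0628), with an exact p of 0.00476 by permutation.

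FMOD against BGN changed less. FMOD led BGN by 4.56, 6.18, 5.40, 6.59 and 5.69 cycles in replicates 1 to 5 of C, and by 5.19, 4.62, 5.18 and 5.64 cycles in replicates 1, 2, 4 and 5 of 3D. The leads in 14D were 5.74, 5.47, 5.36, 4.91, 5.23 and 5.33 cycles, and those in 28D were 5.95, 6.14, 5.25, 6.34, 6.15 and 5.87. The controls spanned both later groups, while 5 of 6 tendons of 28D lay above all of 14D. From 14D to 28D the FMOD to BGN ratio differed by 0.61 on the log2 scale (SE 0.35, exact p 0.0130 by permutation, limma adjusted p = 0.372), and from 3D to 28D by 0.79 (SE 0.39, exact p 0.0190 by permutation, limma adjusted p = 0.280). Against C it differed by 0.27 in 28D (95% interval -0.49 to 1.03), and none of the 6 pairs of groups passed.

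FMOD was ahead of DCN in all 19 animals with both values. In C the Ct of FMOD minus that of DCN was -3.28, -2.13 and -3.06 cycles in replicates 2, 3 and 5, and in 3D it was -3.14, -3.03, -2.02 and -3.24 in replicates 1, 2, 4 and 5. In 14D it was -2.50, -2.12, -1.21, -1.67, -2.16 and -2.53, and in 28D it was -1.42, -2.15, -0.78, -2.39, -1.86 and -1.29. The gap was thus narrower in most tendons of 28D, with 4 of 6 above all of 3D. The DCN to FMOD ratio differed by 1.21 between 28D and 3D (SE 0.43, exact p 0.0238 by permutation, limma adjusted p = 0.157) and by 1.17 between 28D and C (SE 0.47, exact p 0.0476 by permutation, limma adjusted p = 0.187), and neither passed. With the DCN Ct of 26.9 for replicate 1 of C, whose gap to FMOD then was -1.37, 28D exceeded C by 0.81 (exact p 0.129 by permutation). Of the 18 tests between 2 proteoglycans, 1 passed (5.56%), that of DCN over BGN in 28D against 3D, beside 1.8% of all 1386 tests. A single call is too few to read as an excess.

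**Figure D3:**
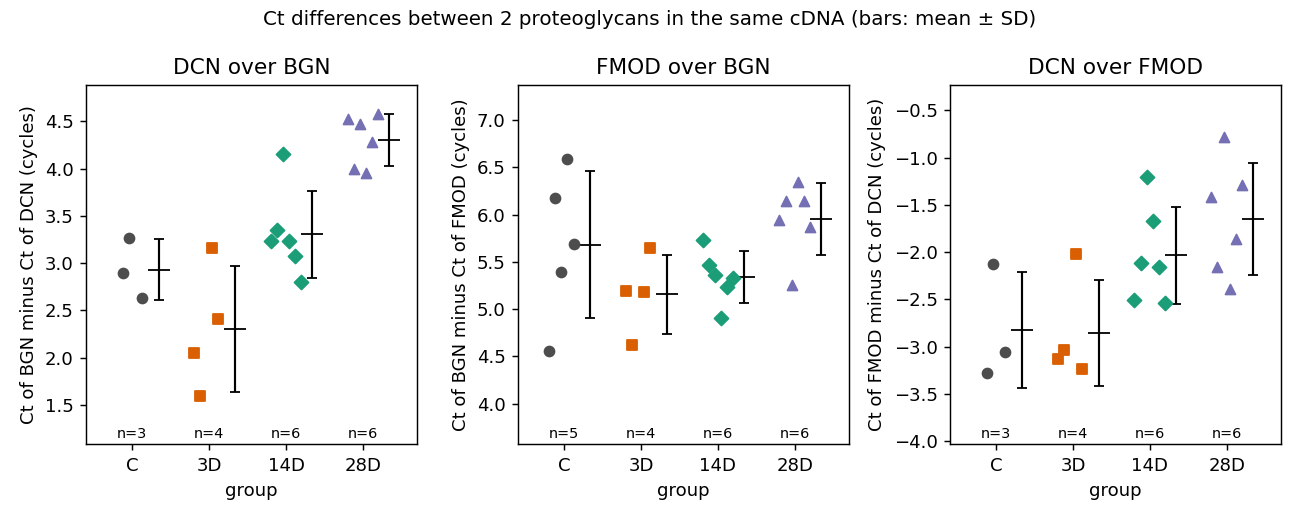
Ct difference between 2 proteoglycans in the same cDNA, in cycles, by group, with 1 point per animal and bars for the mean ± SD; higher means more of the first gene of the title. The 6 points of 28D for DCN over BGN, from 3.96 to 4.58, lie above all points of C and 3D, whereas FMOD over BGN overlaps between C and 28D.

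**Figure D4:**
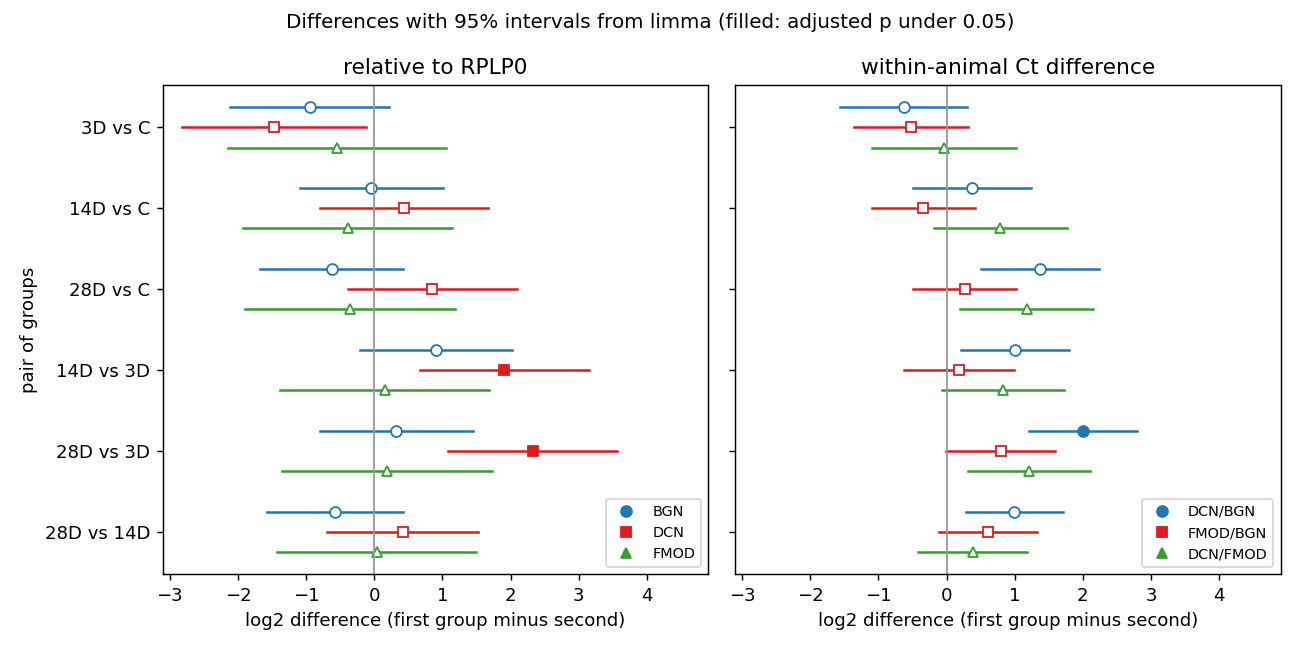
Log2 differences between groups with 95% intervals from limma for the 3 genes relative to RPLP0 (left) and for the Ct differences between them (right); filled symbols passed at an adjusted p under 0.05. The filled symbols are DCN in 14D and 28D against 3D, at 1.91 and 2.32, and the DCN to BGN ratio in 28D against 3D, at 1.999.

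The tightness of these ratios was compared over the panel. After subtracting the mean of each group, the SD of the Ct difference between DCN and BGN was 0.44 cycles over 19 animals, that between FMOD and BGN was 0.49 over 21 animals and that between DCN and FMOD was 0.57 over 19. The median over all gene pairs was 1.04 cycles, and the 3 pairs ranked 5, 11 and 21 from the tightest. The SD of the Ct of a single gene, by comparison, was 1.84 cycles for BGN, 1.77 for DCN and 2.32 for FMOD. Animals with more of one proteoglycan within a group thus also had more of the others, which all genes of a cDNA share in part through its amount.

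The genes that followed each proteoglycan most closely were chosen by this SD. For BGN they were DCN, FN at 0.47 cycles (20 animals) and FMOD, where FN encodes fibronectin, a glycoprotein of the provisional matrix. For DCN they were BGN, VEGF at 0.47 cycles (19 animals) and FN at 0.53 (19 animals), VEGF being a growth factor for blood vessels. For FMOD they were BGN, DCN and, at some distance, COL1A1 at 0.80 cycles (20 animals), the gene of the main chain of type I collagen. With the group means left in, the SD between DCN and BGN was 0.86 cycles and BGN was then only the ninth closest gene to DCN, whereas FMOD was the closest to BGN at 0.55 cycles.

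**Figure D5:**
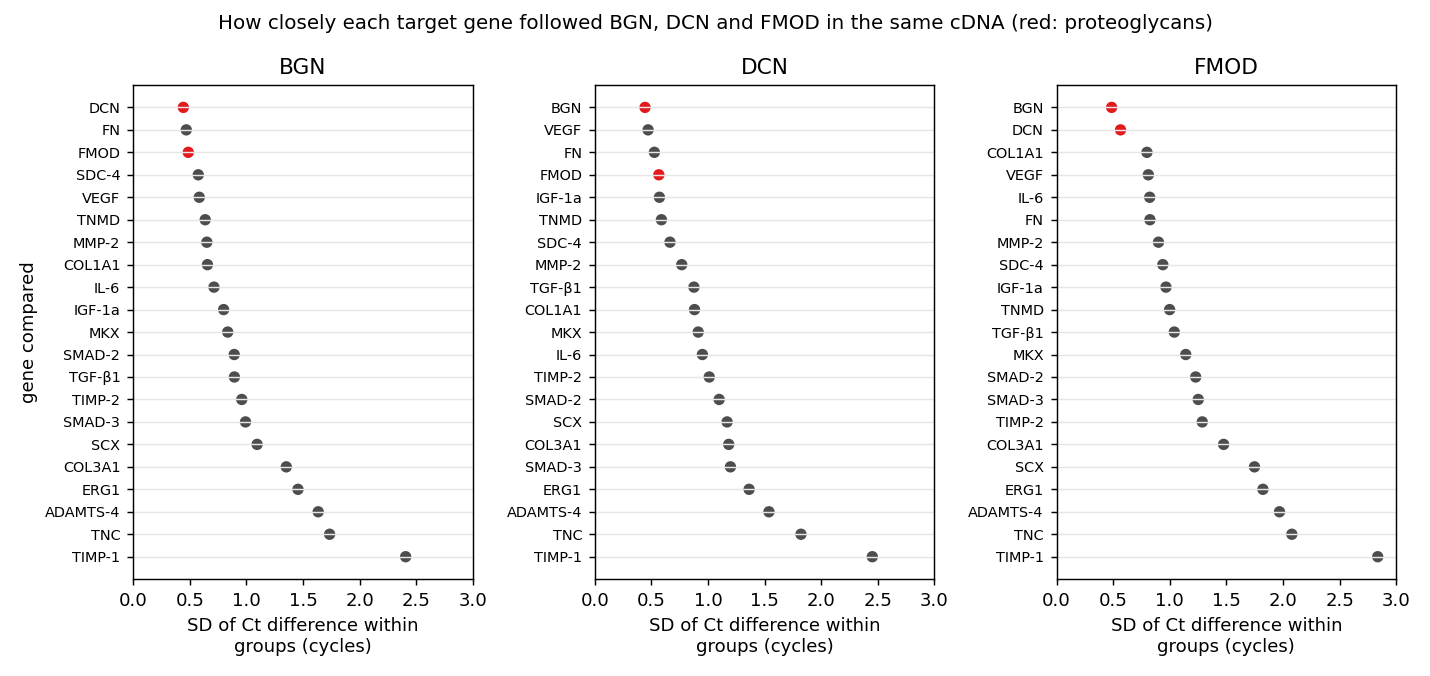
SD of the Ct difference within groups, in cycles, between BGN, DCN or FMOD and each of the 21 other target genes, sorted from the closest; red points are the other proteoglycans. BGN and DCN differ least from each other at 0.44 cycles, and for FMOD both proteoglycans come before COL1A1 at 0.80.

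Of the 2 fibrillar collagens, to which SLRP bind, COL3A1 passed in no pair relative to RPLP0. COL1A1 was the 1 of 22 genes (4.55%) that passed in 3D against C, at a log2 difference of -2.74 relative to RPLP0 (SE 0.61, limma adjusted p = 0.0117, 4 animals each). COL1A1 also passed upward from 3D, by 3.394 in 14D (limma adjusted p = 0.00053) and by 1.999 in 28D (limma adjusted p = 0.0262). From 3D to 14D, BGN differed by 0.904 and FMOD by 0.155 relative to RPLP0, and neither passed. In the same cDNA, the ratio of COL1A1 to BGN rose 5.62-fold from 3D to 14D (means of 1.24 cycles in 3D and 3.73 in 14D, SE of the difference 0.47, limma adjusted p = 0.0107). COL1A1 led BGN by 0.97, 0.60, 1.59 and 1.82 cycles in replicates 1, 2, 4 and 5 of 3D and by 2.80 to 4.40 cycles in 14D, with no overlap (exact permutation p = 0.00476), where 15.6% of gene pairs did not overlap. The ratio of COL1A1 to FMOD rose 4.96-fold between the same groups (2.31, SE 0.53, adjusted p = 0.0268), from -4.22 to -3.60 cycles in 3D to -2.56 to -0.87 in 14D. The ratio of DCN to COL1A1 differed by -1.49 (limma adjusted p = 0.177) and did not pass. In 14D against 3D, 5.63% of gene pairs passed.

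Among the other genes around these proteoglycans, relative to RPLP0, 1 of 3 glycoproteins (FN, TNC, SDC-4) passed upward from 3D to 14D and to 28D, which was FN at 1.77 and 1.63, beside 27.3% and 31.8% of all 22 genes in these comparisons. None of the 3 genes of the TGF-β axis (TGF-β1, SMAD-2, SMAD-3), whose ligand decorin and biglycan bind, passed in any pair. Of 4 proteases and inhibitors, the gelatinase MMP-2 rose by 1.18 from 3D to 14D and by 1.11 from 3D to 28D, its inhibitor TIMP-2 by 1.56 and 1.59, and ADAMTS-4, which cleaves proteoglycans, and TIMP-1 did not pass. Of 3 tendon transcription factors, MKX rose by 1.501 and 1.986 and neither SCX nor ERG1 (Egr1 in the deposited table) passed. The other gene pairs with a proteoglycan that passed were DCN over VEGF, 1.64 higher in 28D than in 3D (SE 0.39, adjusted p = 0.0346), where 1.3% of gene pairs passed, and BGN over TNMD, which fell by 1.59 from 14D to 28D (SE 0.41, adjusted p = 0.0437), where 2.6% of gene pairs passed; TNMD encodes tenomodulin, a marker of mature tenocytes.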

How the data were processed

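RNA of rat calcaneal tendon was reverse transcribed and measured by TaqMan qRT-PCR, with duplicates of each gene in a single run. The authors deposited the Ct, the ΔCt (Ct minus that of RPLP0, a log2 scale with reversed sign) and fold values, the ratio of each animal to the controls. Groups and replicate numbers came from the sample labels, and all columns were assigned to a sample.

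Values that equalled their group's mean without that animal, within 1e-06, and blanks were left out (24 of 484). This rule was applied to the Ct and ΔCt of the target genes and not to the RPLP0 Ct. The sign of ΔCt was reversed and the mean of C subtracted. For Ct differences between genes, the Ct was used. Means of the 4 groups were compared in one model with limma 3.58.1 in R 4.3.3, over 22 genes or all their pairs (1386 tests), with Benjamini-Hochberg adjustment and a threshold of 0.05. This takes the place of the one-way models with Bonferroni adjustment in the methods, which were run as alternatives. The RPLP0 Ct as a covariate, with and without replicate 2 of 3D, the animal's own RPLP0 Ct and the recovered DCN Ct of replicate 1 of C were alternatives chosen after seeing the data. Two-sided exact permutation tests of the animals are not adjusted unless stated. The code was tested on simulated data. The number of animals limits the precision. The rule for named genes was all 3 members, the 3 closest genes of each, and lists of genes around them, and the members and lists were chosen with earlier results of these data known. No protein or promoter sequence is shown, and the other target gene CTGF and reference genes ACTB and GAPDH were not analysed here.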

Additional observations from a re-analysis of the deposited data

Results flagged for a closer look

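One value stood far from its group by Dixon's test, the Ct of FMOD minus that of DCN in replicate 4 of 3D. It was -2.02 cycles, and the other 3 animals of 3D lay between -3.24 and -3.03. The gap was 0.832 of the range of the group. In the same animal DCN relative to RPLP0 was -0.04, the only value of 3D within the range of C. Of the 22 groups tested in this way, chance flags about 1 in 20.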

How the results depend on the processing

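Relative to RPLP0, the rise of DCN from 3D to 28D (2.32) kept its direction under all alternatives, and so did that from 3D to 14D (1.91). The first no longer passed with the Ct alone (2.19), the mean of other target genes as the reference (0.729), one RPLP0 Ct per animal taken from most of its genes (1.99), linear values (1.72), only the 2 groups of the pair (2.32) and adjusted exact p-values (2.32). The second no longer passed in these settings (3.49, 0.952, 1.57, 1.26, 1.91 and 1.91), nor with the deposited fold change table (1.31), Dunn's procedure with Bonferroni adjustment (1.91) and the replicate block (1.94). Of the 2 tests passed by proteoglycans, 0 passed with the Ct alone, the mean of other genes, the RPLP0 Ct of most genes, linear values, the 2 groups alone and adjusted exact p-values, and 1 with the fold change table, Dunn's procedure and the replicate block. Over the panel, 14 tests passed, against 2 with the Ct alone, the mean of other genes, the RPLP0 Ct of most genes or the 2 groups alone, 6 with linear values and 0 with adjusted exact p-values. With its own RPLP0 Ct for each animal, chosen after seeing the data, both DCN rises passed. The RPLP0 Ct of most genes differed from the animal's own only in replicate 5 of 3D. There it was 28.5 in place of 27.1, and 28.5 equals the mean of the other animals of 3D. Leaving out 1 animal gave 1.998 to 2.798 for DCN in 28D against 3D, which did not pass without replicate 1 or 2 of 3D. For 14D against 3D it gave 1.584 to 2.383, which did not pass without replicates 2 or 3 of C, 1, 2 or 5 of 3D, 2, 3, 4 or 5 of 14D, or 1, 5 or 6 of 28D. The counts then ran from 0 to 2 for the proteoglycans and from 5 to 18 for the panel.

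The DCN to BGN ratio in 28D against 3D (1.999) did not pass with all deposited Ct values (1.999), adjusted exact p-values (1.999) or the replicate block (1.913), nor with the RPLP0 covariate and replicate 2 of 3D left out (1.368), so that 0 proteoglycan pairs passed in these 4 settings. All deposited Ct values include those left out above, among them the DCN Ct of 30.1 in replicate 1 of C. The size could not change in that setting, since the Ct values added to 3D were the means of its other animals. The SE of the difference was 0.71. The DCN to BGN ratio in 28D against 3D ran from 1.761 to 2.285 without 1 animal. Against C it stayed between 1.219 and 1.54 without 1 animal and passed without replicate 3 of 14D or replicate 4 of 28D. Of 1386 tests, 25 passed over the panel, 3 with the replicate block, 8 with the RPLP0 covariate and 15 with the covariate and replicate 2 of 3D left out. With adjusted exact p-values 0 passed, and without 1 animal 3 to 101 did, where the proteoglycan pairs gave 0 to 3. The group sizes set a floor to an exact p, which is 0.00476 for 6 animals against 4. The ratio in 28D against 3D was at that floor, so adjustment over 1386 tests left it little room to pass.

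Directions turned only in differences that had not passed. With the Ct alone these were BGN in 14D against C (0.101), DCN in 14D (-0.6397) and 28D (-1.943) against C and in 28D against 14D (-1.304), and FMOD in 28D against 14D (-1.686) and 3D (-0.191). With the mean of other target genes they were BGN in 14D (-0.05136) and 28D (-1.27) against 3D, DCN in 28D against 14D (-0.2235) and C (-0.06274), and FMOD in 14D (-0.5531) and 28D (-1.159) against 3D, 28D against 14D (-0.6057) and 3D against C (0.06047). Linear values turned BGN in 14D against C (0.0517) and FMOD in 14D (-0.2171) and 28D (-0.05074) against 3D. The fold change table turned DCN (-0.16) and FMOD (0.009603) in 14D against C and FMOD in 28D against 14D (-0.04819), and the RPLP0 Ct of most genes turned BGN in 28D against 3D (-0.01158). All deposited Ct values turned FMOD over BGN in 14D (-0.9953) and 28D (-0.3825) against 3D and 3D against C (0.6524), differences of ΔCt turned it in 14D against 3D (-0.1562), and the replicate block turned DCN over FMOD in 3D against C (0.2267), and the RPLP0 covariate without replicate 2 of 3D turned it in 28D against 14D (-0.2931).

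Leaving out 1 animal turned BGN in 14D against C (-0.350 to 0.160), FMOD in 14D against 3D (-0.276 to 0.748) and C (-0.918 to 0.00960), in 28D against 14D (-0.311 to 0.504), 3D (-0.243 to 0.780) and C (-0.886 to 0.115), FMOD over BGN in 28D against C (-0.0114 to 0.496) and DCN over FMOD in 3D against C (-0.312 to 0.315). The cause was not tested. Same-numbered animals of different groups are different rats, so the numbers do not pair the animals. Their deviations from the group means correlated above 0.1 over the genes in 9 of 31 cases, with a range of -0.858 to 0.434. Whether animals of the same number were processed together was not tested.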

Other observations

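The deposited table of relative expression departed from the ΔCt table, by over 0.1 on the log2 scale, in 5 values of the 3 proteoglycans. In replicate 2 of 14D it gives 1.01 for DCN and 0.818 for BGN, where the ΔCt gives 3.9996 and 2.78. In replicate 3 of 14D it gives 0.891 for DCN and 0.751 for BGN, where the ΔCt gives 2.68 and 1.06. For FMOD in replicate 4 of C it gives 1.55, where the ΔCt gives 3.02. The ΔCt of FMOD in replicate 5 of C gives 1.55, and the deposited cell of that animal is blank, as is that of FMOD in replicate 6 of 28D. The 2 animals of 14D with the highest DCN by ΔCt were thus near 1 in this table, and with it the DCN difference of 14D from 3D was 1.31 (adjusted p = 0.0868).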
